A study of Mus musculus with 2 samples.

Results

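The genes described are 10 regulators of the G1 phase of the cell cycle, measured in granulocyte-monocyte progenitors of mouse bone marrow. They are the D cyclin genes Ccnd1, Ccnd2 and Ccnd3, the kinase genes Cdk4 and Cdk6, the Cdk inhibitor genes Cdkn1a, Cdkn1b, Cdkn2c and Cdkn2d, and Rb1. They were chosen by symbol, as a textbook set, with earlier results of these data known. All 10 were found among 43346 annotated genes. The series holds 1 group of 2 libraries of total RNA, labelled as biological replicates. Both came from primary cells of adult male C57BL/6J mice aged 5 to 6 weeks, with no treatment or altered allele named, and ribosomal RNA was removed from 100 ng of RNA for each. Because the labels refer both to 1 donor record, the SD beside a mean may be partly technical. No condition was compared, so there is no p-value. Pairs of values are in the order replicate 1, replicate 2.

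D cyclins are made in response to growth signals and activate Cdk4 and Cdk6, which phosphorylate the retinoblastoma protein and release E2F factors that switch on genes of DNA replication. Inhibitors of the INK4 family, among them the products of Cdkn2c and Cdkn2d, bind Cdk4 and Cdk6 themselves. Inhibitors of the CIP/KIP family, among them the products of Cdkn1a and Cdkn1b, bind cyclin-kinase complexes and block Cdk2 strongly. In blood progenitors these genes take part in the balance of division and differentiation.

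Replicate 1 held 49473848 and replicate 2 held 44260902 expected counts, which are reads assigned to genes by an estimator. Levels are given in TPM, a unit that divides reads by effective length and is scaled over every feature in the file. Nuclear protein-coding genes had shares of 19.1% and 22.8% of all TPM, so a level that is steady among mRNAs is higher in replicate 2 as deposited. Rescaled TPM, in which those genes alone make up the total, removes that shift. Markers of the labelled cells were present: all 8 of the surface and primary granule genes Kit, Cd34, Fcgr3, Fcgr2b, Mpo, Elane, Prtn3 and Ctsg exceeded 10 TPM in both libraries. Of 9 markers of stem, lymphoid, erythroid and megakaryocyte cells, none reached 1 TPM in both libraries as deposited. Among them Ly6a, Cd79a, Pax5, Cd3e and Gp1bb, 5 in number, had no count at all, and the 9 summed to 0.63 and 1.15 TPM. On rescaled TPM, the megakaryocyte marker Pf4 was at 2.52 and 3.77, and the others stayed below 1. The later neutrophil granule genes Ltf, Camp and Ngp summed to 109 and 110 TPM, and their part in the levels below was not tested.

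The sequences below show where transcripts of these genes differ. Positions are on mm10 and each sequence reads 5′ to 3′ on the strand of its gene. The opening exon of the Cdk4 transcript Cdk4-209, at chr10:127066076-127066236 on the plus strand, is shown because this short transcript carries most of the TPM of Cdk4. Its 25 capital letters are the bases that the main coding transcript Cdk4-201 lacks, and the rest is coding exon.
Cdk4-209, opening exon: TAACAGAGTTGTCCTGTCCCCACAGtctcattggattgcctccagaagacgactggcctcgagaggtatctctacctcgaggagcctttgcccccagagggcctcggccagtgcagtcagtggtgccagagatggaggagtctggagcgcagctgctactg
Ccnd3 and Cdkn2c each have transcripts with separate starts, whose use is described further on. The bases printed for both starts of Ccnd3 and for the downstream start of Cdkn2c precede the first annotated exon there and are from RefSeq on GRCm38.p6, the assembly also called mm10. They lie at chr17:47593217-47593435 and chr17:47504801-47505050 on the plus strand for Ccnd3, and at chr4:109665373-109665609 on the minus strand for Cdkn2c.
Ccnd3, downstream start: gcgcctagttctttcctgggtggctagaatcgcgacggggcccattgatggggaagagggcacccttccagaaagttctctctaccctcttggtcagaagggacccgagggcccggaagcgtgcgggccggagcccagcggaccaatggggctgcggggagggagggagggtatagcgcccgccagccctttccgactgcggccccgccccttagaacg
Ccnd3, upstream start: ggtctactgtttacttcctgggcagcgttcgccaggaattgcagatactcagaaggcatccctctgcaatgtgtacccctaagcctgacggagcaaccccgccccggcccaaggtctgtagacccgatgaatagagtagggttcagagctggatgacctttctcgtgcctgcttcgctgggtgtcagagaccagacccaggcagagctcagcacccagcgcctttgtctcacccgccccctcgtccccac
Cdkn2c, downstream start: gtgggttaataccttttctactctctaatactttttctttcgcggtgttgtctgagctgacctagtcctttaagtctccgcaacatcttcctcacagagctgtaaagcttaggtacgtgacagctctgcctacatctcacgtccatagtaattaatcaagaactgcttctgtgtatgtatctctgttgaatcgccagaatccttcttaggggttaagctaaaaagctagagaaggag
In the RefSeq promoter table, 7 of the 10 genes matched, with 10 windows of 300 bases. Ccnd1, Ccnd2 and Rb1 had no entry. The E2F octamers TTTCCCGC, TTTCGCGC, TTTGCCGC and TTTGGCGC, searched on both strands, were in 0 of those 10 windows and in 2.26% of all 32851. That describes these letters in these windows only.

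Both kinase genes stood above the other 8 in each library. Cdk4 was at 111.5 and 169.0 TPM, and Cdk6 at 45.3 and 45.9 TPM. Ccnd2 was next, at 10.1 and 13.0 TPM. Cdkn1b, Ccnd3 and Cdkn2c followed within a narrow range, then Rb1 and Cdkn2d, then Ccnd1 below 2 TPM and Cdkn1a below 1 TPM. The order of the 10 genes was the same in both libraries. As deposited, the values of the libraries overlapped between Cdkn1b, Ccnd3 and Cdkn2c and between Rb1 and Cdkn2d. On rescaled TPM, Cdkn1b at 38.9 and 38.4, Ccnd3 at 36.7 and 37.0 and Cdkn2c at 29.9 and 34.8 did not overlap, while Rb1 at 16.7 and 19.3 and Cdkn2d at 15.7 and 16.9 still did. Of neighbours in the order, only Rb1 and Cdkn2d thus overlapped in their point values on that scale. The order of Cdkn1b and Ccnd3 is still not settled, because their deposited credibility intervals overlapped in each library. They were 7.05 to 7.62 and 8.32 to 9.02 TPM for Cdkn1b, and 6.96 to 7.82 and 8.61 to 10.3 TPM for Ccnd3. On posterior mean TPM, Ccnd3 at 8.395 ± 1.42 was above Cdkn1b at 8.01 ± 0.95 (SD, n = 2). In bulk RNA a low level can mean few cells with the transcript or little of it per cell, and these cannot be told apart. In all, 9 of 10 genes reached 1 TPM in both libraries, where 40.9% of 21474 protein-coding genes did, and 3 of 10 reached 10 TPM in both, where 14.3% did. The 10 leave out the inhibitor genes Cdkn2a, Cdkn2b and Cdkn1c, of which 0 of 3 reached 1 TPM in both. They were also chosen with earlier results of these data known, so no enrichment is read from these shares. On rescaled TPM, Cdkn1a at 3.36 and 1.31 passed 1 as well, and the share of all genes on that scale was not computed. The median of the 10 was 6.35 and 8.21 TPM. Over the 8775 protein-coding genes at or above 1 TPM in both, it was 6.48 and 7.75 TPM.

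**Figure D1:**
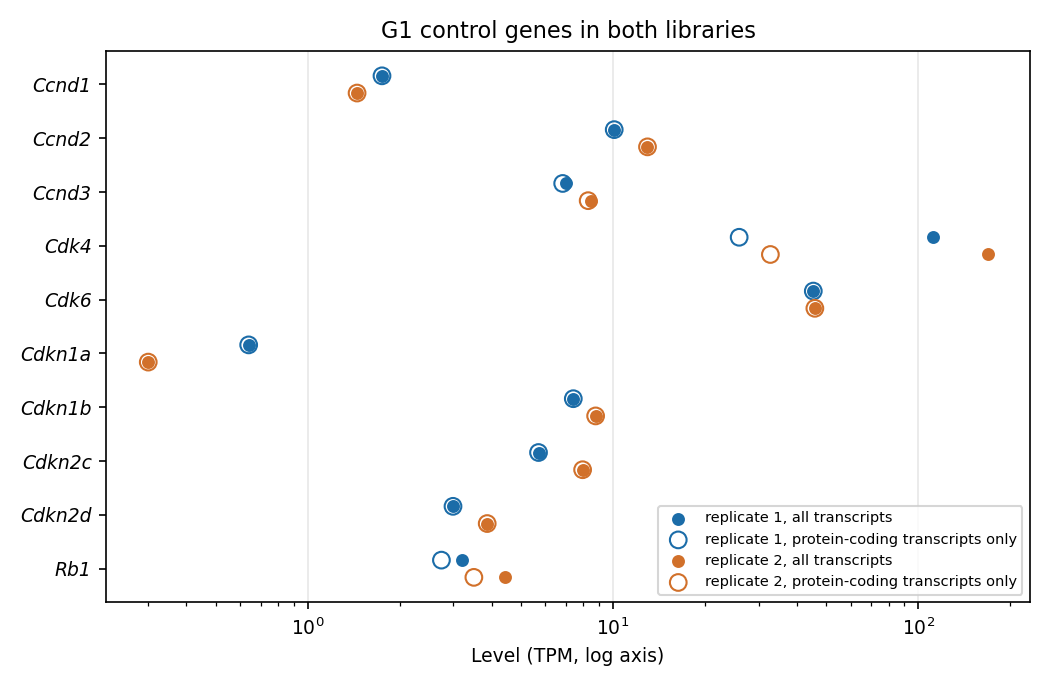
Level of each of the 10 genes in TPM on a log axis, with 1 point per library, filled for all transcripts of the gene and open for its protein-coding transcripts only. Open and filled points lie apart for Cdk4, where the open points are at 25.9 and 32.8 TPM, and slightly for Rb1.

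The kinase genes exchanged places when only protein-coding transcripts were counted, a step added after the data were seen. Cdk4 encodes the kinase partner of D cyclins found in most tissues, and Cdk6 its close relative, which is prominent in blood cells. Over all transcripts, Cdk4 exceeded Cdk6 by 1.59 ± 0.41 on log2(TPM + 0.1) (SD, n = 2), from 1.30 in the first library to 1.88 in the second. Over protein-coding transcripts, Cdk4 was at 25.9 and 32.8 TPM and Cdk6 at 45.3 and 45.9 TPM, a difference of -0.64 ± 0.23. Both libraries gave the same direction on each measure, and the directions were opposite. Cdkn2d and Rb1 also exchanged places, with 2.99 and 3.87 TPM for Cdkn2d and 2.74 and 3.50 TPM for the coding transcripts of Rb1, values that overlap.

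The TPM of Cdk4 lay mostly in a short transcript. Cdk4-209 is classed as a retained intron, is 468 nt long and shares 443 of its bases with Cdk4-201, the 2053 nt coding transcript. Only the 25 capital bases in the sequence above separate it from that transcript. It held 21.4% of the reads of Cdk4 in replicate 1 and 27.96% in replicate 2, but 56.8% and 67.3% of its TPM, at 63.4 and 113.8 TPM. Cdk4-201 held 51.97% and 46.6% of the reads but 21.4% and 15.6% of the TPM, at 23.9 and 26.3 TPM. Reads from the shared bases fit either transcript, so the split between them is an estimate. The deposited credibility intervals of Cdk4-209 ran from 59.9 to 65.98 TPM and from 108 to 117 TPM, and the sources used here do not state their confidence level. Cdk4-208, classed as a target of nonsense-mediated decay, held 12.7% and 7.75% of the TPM.

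With all reads of each gene set over the effective length of its leading coding transcript, both kinases came out near each other. Cdk4 was then at 45.9 and 56.4 TPM and Cdk6 at 42.5 and 43.4 TPM, a difference of 0.24 ± 0.19 (SD, n = 2). In reads, Cdk6 had more, with 21799 and 17073 expected counts against 12406 and 11605 for Cdk4. Among the 8775 protein-coding genes at or above 1 TPM in both libraries, 6.8% had more than 50% of their TPM in transcripts not classed as protein-coding in both. For Cdk4 that share was 76.8% in replicate 1 and 80.6% in replicate 2, against a median of 0.478% and 1.14% over those genes.

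**Figure D2:**
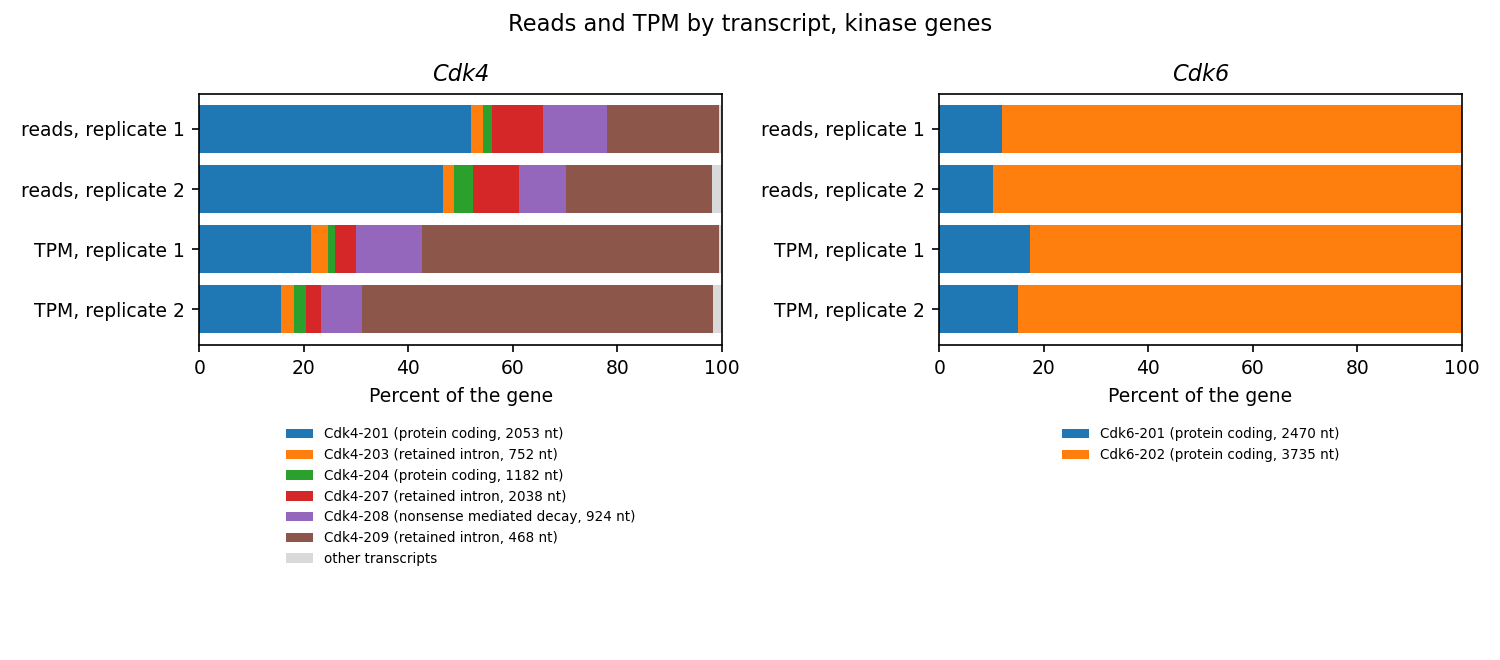
Percent of the reads (upper pair of bars) and of the TPM (lower pair) that each transcript held for Cdk4 and Cdk6 in each library, with class and deposited length in the key. The 468 nt transcript Cdk4-209 widens from 21.4% of the reads to 56.8% of the TPM in replicate 1, while Cdk6 keeps nearly the same split.

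Cdk6 had 2 transcripts with 1 shared coding sequence. Cdk6-202 held 82.6% and 85.0% of its TPM. The deposited tables give Cdk6-202 a length of 3735 nt, whereas the later annotation GENCODE M21 gives it 11525 nt. How many reads fall in the added bases was not tested. Ccnd2-201 is likewise 5701 nt in the tables and 6330 nt in GENCODE M21. The kinase genes together exceeded the D cyclins together by 3.14 ± 0.12 on log2(TPM + 0.1) (SD, n = 2), with 157 and 215 TPM against 18.8 and 22.9 TPM. Over protein-coding transcripts the difference was 1.86 ± 0.10, so its direction held and its size was smaller. Cdk4 lies on chromosome 10 at 127063534 to 127067920 and Cdk6 on chromosome 5 at 3341485 to 3531008. Cdk4 overlaps Tspan31 on the opposite strand, and Cdk6 overlaps 2 antisense genes, Gm17590 and Gm42435. The sources used here do not state whether counting used strand, so reads of overlapping genes on opposite strands may have been joined.

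Ccnd2 was the most abundant D cyclin gene, ahead of Ccnd3 and well ahead of Ccnd1. Ccnd2 had 8034 expected counts in replicate 1 and 7954 in replicate 2, at 11.5 TPM ± 2.04 (SD, n = 2). Ccnd3, the D cyclin gene of many differentiated blood lineages, had 1848 and 1675 counts, at 6.99 and 8.46 TPM. It was below Ccnd2 in both libraries, with a difference of -0.57 ± 0.06 on log2(TPM + 0.1), which is larger than the spread between libraries. Ccnd1, the D cyclin gene of many epithelial tissues, had 900 and 573 counts, at 1.75 and 1.45 TPM. Ccnd2 exceeded Ccnd1 by 2.77 ± 0.43, and the values of the 3 genes did not overlap. On rescaled TPM, Ccnd2 was at 52.9 and 56.8, Ccnd3 at 36.7 and 37.0, and Ccnd1 at 9.18 and 6.35. Ccnd1 lies on chromosome 7 at 144929931 to 144939925, Ccnd2 on chromosome 6 at 127125162 to 127152193, and Ccnd3 on chromosome 17 at 47505051 to 47599691. Each overlaps a gene on the opposite strand: LTO1 for Ccnd1, Bysl for Ccnd3, and Gm43126 and 9330179D12Rik for Ccnd2.

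Ccnd1 and Ccnd2 each had all their reads on 1 transcript, while Ccnd3 had reads on 7 of 21. Its leading transcript, Ccnd3-205, starts 88342 nt downstream of the start of Ccnd3-201 and has the same coding sequence of 876 bases, the stop codon left out. Ccnd3-205 held 97.3% and 85.8% of the TPM of Ccnd3. Ccnd3-201 held 0% and 11.6%, with 0 and 196 expected counts. Its deposited credibility intervals overlapped, with upper bounds of 0.706 and 1.32 TPM, so a difference in the upstream start was not detectable. Among other upstream transcripts, Ccnd3-215 had 14.3 and 0 counts, and Ccnd3-202 had 0 and 11.5. As estimated, the downstream start whose preceding bases are printed above thus carried most of the Ccnd3 signal in both libraries. The upstream start carried little. Ccnd3-205 shares 1793 of its 1977 bases with Ccnd3-201, and reads from those bases fit either transcript. The split between the starts is therefore an estimate, as for Cdk4.

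Among the inhibitors, Cdkn1b and Cdkn2c were highest, Cdkn2d was lower and Cdkn1a lowest. Cdkn1b encodes p27, which holds cells out of the cycle, and was at 7.41 and 8.77 TPM. Cdkn2c encodes p18 and was at 5.71 and 7.95 TPM. Cdkn2d encodes p19 and was at 2.99 and 3.87 TPM, below Cdkn2c by 0.97 ± 0.08 on log2(TPM + 0.1) (SD, n = 2). Cdkn1a encodes p21, a target of the p53 pathway, and was at 0.64 and 0.30 TPM. Cdkn1b exceeded it by 3.91 ± 0.80, with library values of 3.34 and 4.47. The summed INK4 pair differed from the summed CIP/KIP pair by 0.24 ± 0.19, and that sign turned to -0.39 ± 0.06 with all reads set over the leading coding transcript. No order of these families is therefore read from the sums. Cdkn1a lies on chromosome 17 at 29090976 to 29100727, Cdkn1b on chromosome 6 at 134920401 to 134925513, Cdkn2c on chromosome 4 at 109660876 to 109667189, and Cdkn2d on chromosome 9 at 21288410 to 21291407. Cdkn1b, Cdkn2c and Cdkn2d overlap no other annotated gene, and Cdkn1a overlaps AC167363.2 on the opposite strand.

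The D cyclins together and the 4 inhibitors together were at nearly the same level. The D cyclins summed to 18.8 and 22.9 TPM, and the inhibitors to 16.8 and 20.9 TPM. The difference on log2(TPM + 0.1) was 0.15 ± 0.03 (SD, n = 2), which is a small excess of D cyclins in both libraries. Of the other inhibitor genes, neither Cdkn2a nor Cdkn2b had any count. By 3 counts, this allows up to 0.0299 and 0.0407 TPM for Cdkn2a and up to 0.0171 and 0.0228 TPM for Cdkn2b, for counting error only. Cdkn1c, which encodes p57, had 20 counts in replicate 1 and 0 in replicate 2. In replicate 1 this was 0.08 TPM, with an exact Poisson 95% interval of 0.0494 to 0.125. For the 0 counts in replicate 2, the limit of 3 counts is 0.0158 TPM, and the exact Poisson 95% interval reaches 0.0194 TPM.

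The inhibitor transcripts differed outside their coding sequence. Cdkn2c-202 is 2471 nt long and Cdkn2c-201 is 1106 nt, with starts 1817 nt apart and the same 504 coding bases. The short transcript was at 1.78 and 3.89 TPM, and its credibility intervals, 1.37 to 2.16 and 3.34 to 4.38 TPM, did not overlap. The long transcript was at 3.92 and 4.06 TPM, with overlapping intervals. The long transcript thus held 68.8% and 51.1% of the TPM of Cdkn2c. Cdkn2c as a whole had nearly the same counts in both, 1536 and 1412. The mean fragment lengths were 178 and 214 nt, and the labelled size ranges also differed. The part of either in this shift was not tested. Cdkn1b-201 and Cdkn1b-202 share start and coding sequence and have lengths of 2393 and 4552 nt. The shorter held 68.0% and 65.0% of the TPM. Cdkn1a had reads on 1 of 3 transcripts, Cdkn1a-201, and Cdkn2d has 1 transcript in the tables.

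**Figure D3:**
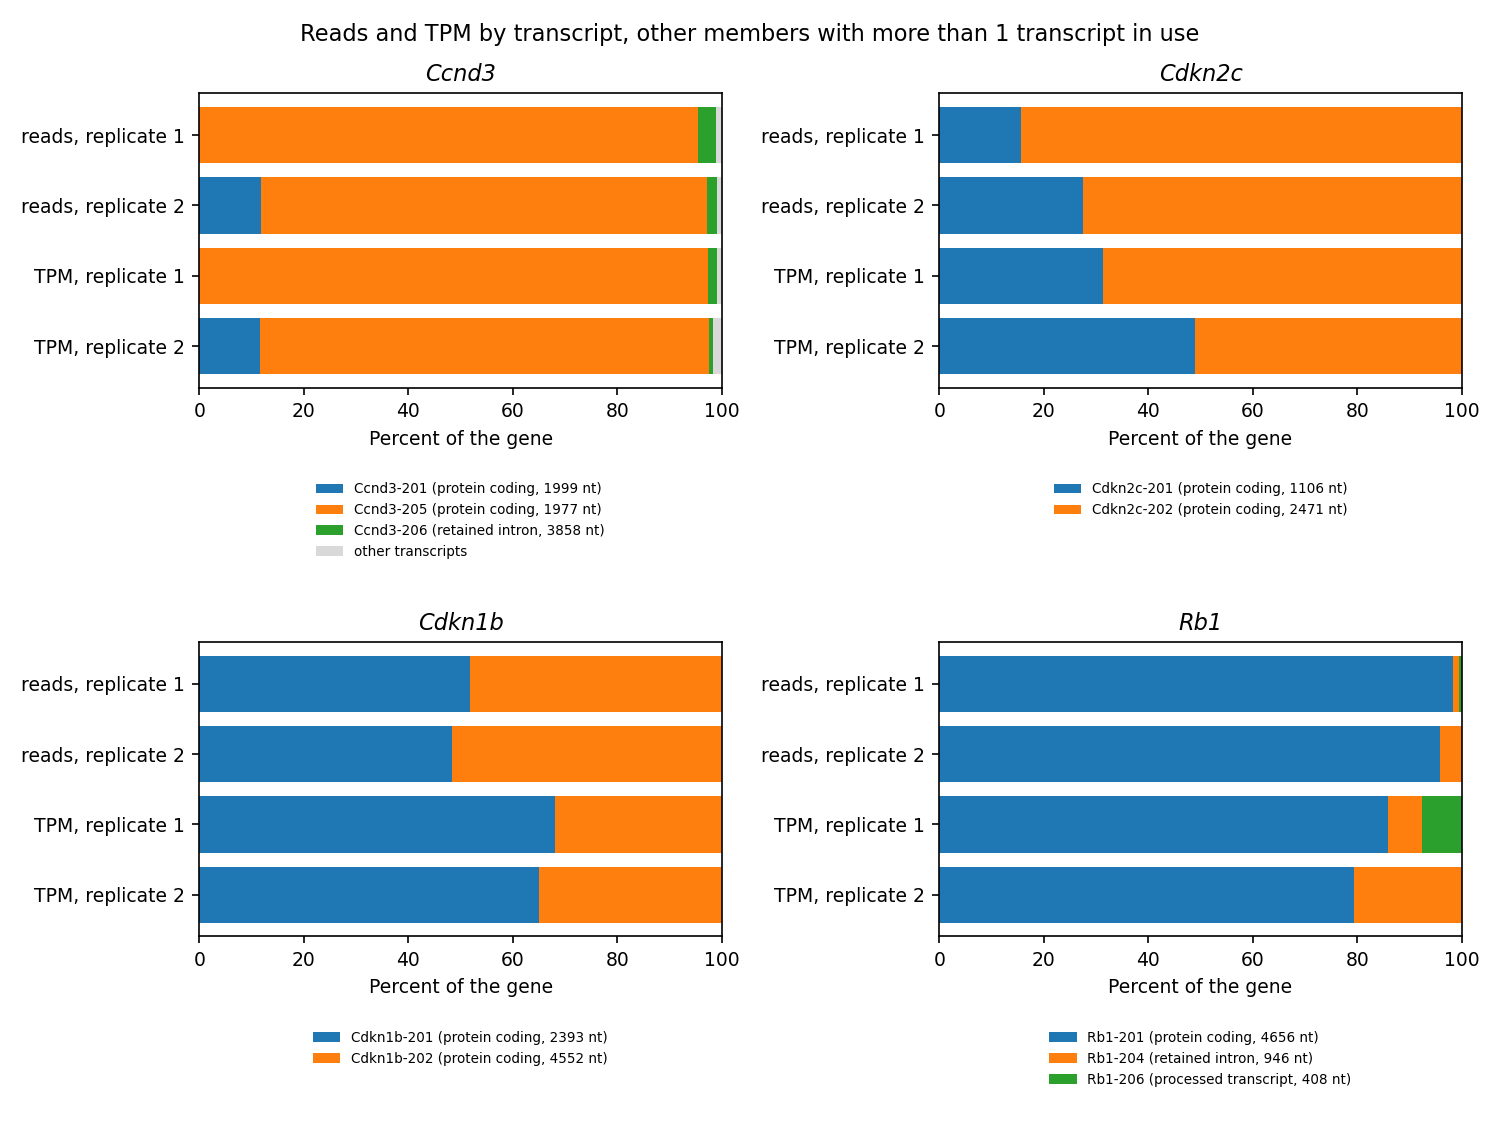
Percent of the reads (upper pair of bars) and of the TPM (lower pair) held by each transcript of Ccnd3, Cdkn2c, Cdkn1b and Rb1 in each library. The short Cdkn2c transcript takes 31.3% and 48.9% of the TPM in the order of the replicates, and Cdkn1b keeps nearly the same split in both.

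Rb1, which encodes the retinoblastoma protein, was below both of its relatives. It had 1800 and 1811 expected counts, at 3.19 and 4.41 TPM. Rbl1, which encodes p107, was at 15.8 and 21.2 TPM, and Rbl2, which encodes p130, at 11.7 and 10.8 TPM. Rb1 was below Rbl1 by a log2(TPM + 0.1) difference of -2.26 ± 0.03 and below Rbl2 by -1.56 ± 0.40 (SD, n = 2). Over protein-coding transcripts, which were 2.74 and 3.50 TPM for Rb1, these were -1.56 ± 0.09 and -1.05 ± 0.20, so the direction held and the size was smaller. The coding transcript Rb1-201 held 98.2% and 95.9% of the reads of Rb1 and 85.8% and 79.3% of its TPM. The retained-intron transcript Rb1-204, 946 nt long, had 23.6 and 74.8 expected counts and took 6.66% and 20.7% of the TPM. Its credibility intervals, 0.0942 to 0.373 and 0.689 to 1.17 TPM, did not overlap. Rb1 lies on chromosome 14 at 73183673 to 73325822 and overlaps Rcbtb2 and Lpar6 on the opposite strand and Gm17233 and Mir687 on its own.

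Between the libraries, 2 of the 10 genes differed by more than 0.5, where 25.4% of the 12855 genes kept by the count filter did. Differences are given as log2 CPM, which is reads per library total after scaling by TMM, replicate 2 minus replicate 1. The other 8 lay between -0.24 for Cdk6 and 0.13 for Rb1. The median absolute difference over all 10 genes was 0.088, where that over the 12855 genes was 0.25. Those genes were not matched to the 10 for depth, so no unusual steadiness of the set is read from this. With a trend on GC content removed, the 8 lay between -0.32 for Cdk6 and 0.19 for Cdkn2d, and the signs of Ccnd3, Cdkn2c, Cdkn1b and Rb1 turned, so no direction is read from these small values. Cdk4 differed by 0.02, although its deposited TPM was 1.52 times as high in replicate 2. On rescaled TPM, which removes the shift of scale, it was at 585 and 740, a log2 difference of 0.34. Its effective lengths in the tables were 772 and 614 nt. Ccnd1 was lower in replicate 2, at -0.53, with 573 counts against 900. Its deposited credibility intervals for the gene overlapped, at 1.64 to 1.91 TPM in replicate 1 and 1.34 to 1.75 TPM in replicate 2. Those of Ccnd1-201, the transcript with all its reads, did not, at 1.62 to 1.85 and 1.32 to 1.55 TPM. Exact Poisson 95% intervals, which cover counting error only, did not overlap either (1.64 to 1.87 and 1.34 to 1.58 TPM). Both kinds are on deposited TPM, where a steady mRNA level is higher in replicate 2. The overlap of the gene intervals is thus not a check of the scaled difference. On rescaled TPM, Ccnd1 was at 9.18 and 6.35. Ccnd1 and Cdkn1a were the 2 genes more than 0.5 apart. With the trend on GC content removed, Ccnd1 was at -0.49, so only Cdkn1a stayed that far apart. The share of all genes was not computed for that setting. Among the 1724 genes within 0.5 of the mean log2 CPM of Ccnd1, 22.0% were that far apart.

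Cdkn1a was the gene furthest apart, at -1.36. It had 159 expected counts in replicate 1 and 56 in replicate 2. The exact Poisson 95% intervals were 135 to 186 and 42.3 to 72.7 counts, so the difference exceeded counting error. It was the only 1 of the 10 genes more than 1 apart, where 9.48% of the 12855 genes were, and 5.11% were lower in replicate 2 by that much. Among the 898 genes within 0.5 of its mean log2 CPM, 30.0% were more than 1 apart. Differences of this size were thus more frequent near its depth than over all genes, and 1 library against 1 has no replicate check. The 10 genes were evenly divided, with 5 lower in replicate 2, where 50.4% of the 12855 genes were lower.

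**Figure D4:**
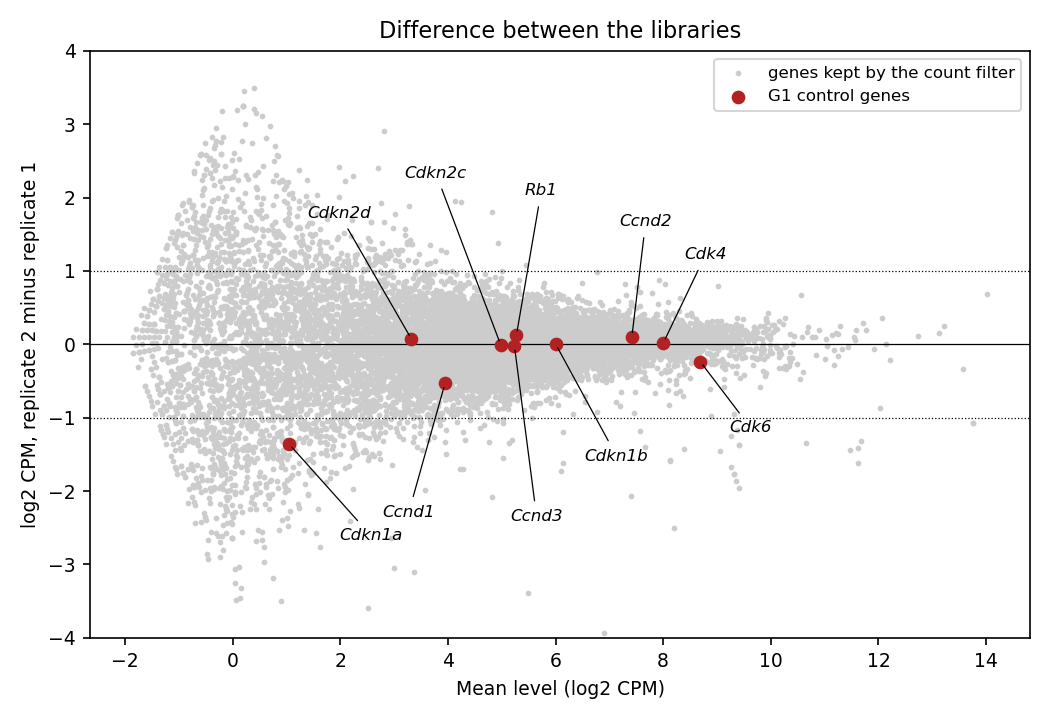
Difference of log2 CPM between the libraries (replicate 2 minus replicate 1) against mean log2 CPM, with the 10 genes in red over the 12855 genes kept by the count filter in grey; dotted lines mark 1 and -1, and 5 genes lie outside the plotted range of 4. Cdkn1a at -1.36 and Ccnd1 at -0.53 lie lowest, and the other 8 lie between -0.24 and 0.13.

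The genes that act after the D cyclin step were expressed. All 4 genes of the cyclin E step reached 1 TPM in both libraries, where 40.9% of 21474 protein-coding genes did. Ccne2 was at 30.99 and 27.8 TPM, but its protein-coding transcripts were at 6.17 and 11.5 TPM. Ccne1 was at 4.11 and 6.03 TPM. Their kinase partner Cdk2 was at 10.4 and 13.2 TPM, and Cdc25a, a phosphatase that activates Cdk2, at 8.41 and 10.2 TPM. Cdk2 was thus below Cdk6 on both measures of level. The 4 S to M genes all exceeded 10 TPM in both libraries, where 14.3% of protein-coding genes reached 10 TPM. Ccna2, the A cyclin gene of S phase, was at 37.7 and 44.4 TPM. Cdk1, the kinase of mitosis, was at 71.5 and 68.6 TPM, and at 31.4 and 30.7 TPM over protein-coding transcripts.

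Genes that activate, assemble or degrade the G1 complexes were all at or above 1 TPM in both libraries, where 40.9% of protein-coding genes were. The Cdk-activating kinase, which phosphorylates Cdks on their activation loop, had 3 of 3 genes at that level, with Cdk7 at 2.43 and 2.56 TPM and its cyclin gene Ccnh at 13.2 and 20.5 TPM. Cdc37, a cochaperone that loads Cdk4 and Cdk6 onto Hsp90, was at 27.9 and 28.5 TPM. Skp2, the subunit that marks p27 for degradation, was at 4.4 and 7.63 TPM, and its cofactor gene Cks1b at 38.1 and 50.01 TPM. Ambra1, an adaptor for degradation of D cyclins, was at 4.8 and 3.14 TPM, and at 2.72 and 3.05 TPM over protein-coding transcripts, so the order of the libraries turned. Of the 8 E2F genes, 6 reached 1 TPM in both libraries, and none reached 10 TPM in both, where 14.3% of protein-coding genes did. Over protein-coding transcripts 5 reached 1 TPM, and the share of all genes on that measure was not computed. These lists were chosen with earlier results known, so no enrichment is read from their counts. E2f4 was the highest E2F gene, at 9.92 and 10.4 TPM. E2f1 was at 1.48 and 2.32 TPM.

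**Figure D5:**
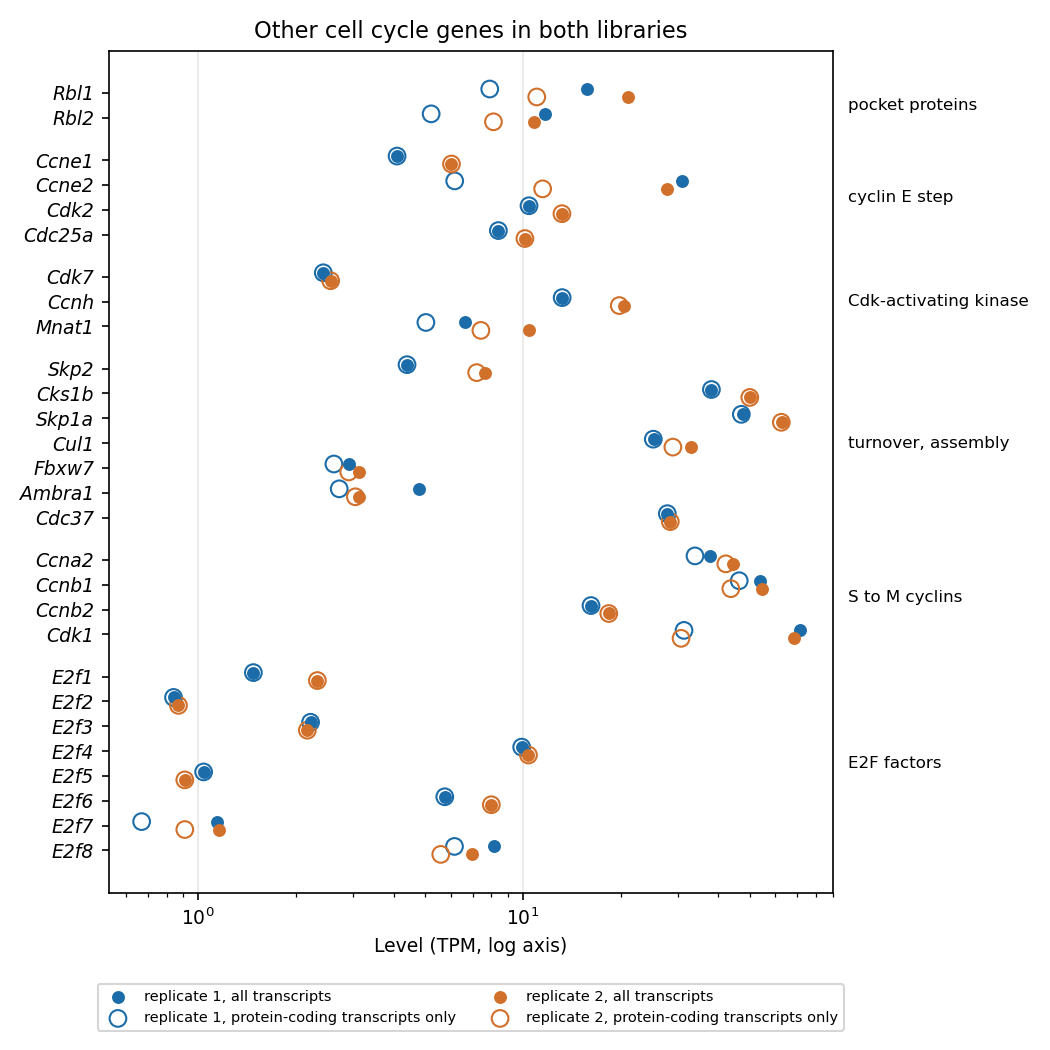
Level in TPM on a log axis of 28 other cell cycle genes in both libraries, filled for all transcripts and open for protein-coding transcripts only, grouped by role. Open points lie well below filled ones for Ccne2, Cdk1, Rbl1 and, in replicate 1, Rbl2, Ambra1 and E2f7. Gaps are smaller for E2f8 and Mnat1, among others.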

How the data were processed

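Total RNA-seq of 2 libraries was analysed. Per the file headers, the authors deposited expected counts, TPM, FPKM, posterior means and credibility bounds per gene and transcript, and each transcript's percent of its gene's TPM. Per the deposited metadata the assembly was mm10 and the annotation GENCODE M4. For aligner and quantifier: not given in the sources used here. Symbols, classes and exons came from GENCODE M21 (also mm10), joined on unversioned identifiers, matching 42462 of 43346 genes. Expected counts of all 10 genes were whole numbers (tolerance 0.005). Expected counts were rounded and scaled by TMM in edgeR 4.0.16 (R 4.3.3), with filterByExpr and a prior count of 2, and this step was tested on simulated data. Contrasts are differences of log2(TPM + 0.1) within a library. Rescaled TPM counts nuclear protein-coding genes alone. The genes and lists were chosen with earlier results of these data known. DESeq2 1.42.0 size factors, other pseudocounts, filters and thresholds, FPKM, posterior means and a trend on GC content (statsmodels 0.14.6) were the alternatives, and 2 more were added after the data were seen. Named are the 10 genes, fixed lists of their pathway and of cell markers, and transcripts with a mean share of at least 10%. Others with their values (Ccnd3-201, overlapping genes) were chosen after these were seen.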

Additional observations from a re-analysis of the deposited data

How the results depend on the processing

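No paired analysis was possible because the series holds 1 group. All 10 contrasts kept their direction with FPKM, posterior means, rescaled TPM, other pseudocounts and in each library alone. Counting protein-coding transcripts only, added after the data were seen, reversed Cdk4 over Cdk6 to -0.64 and gave 1.86 for both kinases over the D cyclins, -1.56 for Rb1 over Rbl1 and -1.05 for Rb1 over Rbl2. All reads over the leading coding transcript, also added later, gave 0.24 for Cdk4 over Cdk6, 2.17 for both kinases over the D cyclins, -0.57 for Cdkn2d over Cdkn2c, 0.081 for the D cyclins over the inhibitors, -2.01 for Rb1 over Rbl1 and -1.15 for Rb1 over Rbl2. It reversed the INK4 pair over the CIP/KIP pair to -0.39. A pseudocount of 1 gave 2.26 for Ccnd2 over Ccnd1, -0.81 for Cdkn2d over Cdkn2c, 2.63 for Cdkn1b over Cdkn1a and -2.02 for Rb1 over Rbl1, which was -2.28 at 0.01. Posterior means gave -0.44 for Ccnd3 over Ccnd2, 0.20 for the D cyclins over the inhibitors and -2.16 for Rb1 over Rbl1. At a threshold of 0.5 on log2 CPM, 2 genes lay apart in place of 1 (Ccnd1 and Cdkn1a), where 25.4% of all genes tested did. With a trend on GC content removed, Cdkn1a was at -1.24, Ccnd1 at -0.49, Cdk6 at -0.32, Ccnd3 at 0.18, Cdkn2c at 0.17, Cdk4 at 0.14 and Rb1 at -0.04. Depth limits Cdkn1a and the genes at 0, and fragment length sets the effective length of the shortest transcripts.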
